A study of Mus musculus with 6 samples.

Results

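Malat1, Meg3, Bc1, Snhg11, Miat, Neat1 and Rian are 7 abundant noncoding RNAs of mouse brain, described here across brain regions and across 6 coronal half-brain sections. They are 7 of the 32288 genes used, all but 3 of them mouse genes, and were picked by name for their high level in these same sections, so that the level itself is no finding. All 7 were found in the files. The sections were measured by Visium, a spatial RNA assay in which barcoded spots on a slide capture polyadenylated RNA from the tissue above them, and each molecule is counted once by its unique molecular identifier (UMI). A spot covers a small area with several cells or parts of cells.

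All 6 animals were female and homozygous for a human APOE targeted replacement allele, in which the coding exon of mouse Apoe is exchanged for the human sequence and stays under the mouse Apoe promoter. The allele was APOE3 in the E3 groups and APOE4 in the E4 groups. The young pair was 3 months old and the aged pair 24 months old. The 5xFAD pair was 12 months old, called middle-aged in the labels, and also carried the 5xFAD transgenes, which the Thy1 promoter drives in neurons. Either allele was thus studied in 3 conditions (young, aged and 5xFAD), and each of the 6 groups was 1 section of 1 hemisphere. Values of all 6 sections are listed below in a fixed order: young, aged, then 5xFAD, with E3 before E4 in each pair. The 5xFAD comparison mixes the transgenes with an age of 12 against 3 months. It also takes in strain, since the paper crossed its APOE lines to a 5xFAD strain listed with another background (B6SJL). No 2 sections can be tested against each other.

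The 7 RNAs differ in where they stay in the cell. Malat1 is kept in the nucleus at speckles, which store splicing factors, and Neat1 is the scaffold of paraspeckles, nuclear bodies built with the proteins NONO and SFPQ. Miat (also called Gomafu) forms its own nuclear granules in neurons. Meg3 and Rian are read from the maternal chromosome of the imprinted Dlk1-Dio3 domain, and Rian carries small nucleolar RNAs in its introns, as does Snhg11, a small nucleolar RNA host gene. Bc1 is a short RNA polymerase III transcript of rodent neurons that is exported to the cytoplasm, carried into dendrites and there represses the start of translation. Mature Malat1 has no poly(A) tail added to its end, which is cut just after an A-rich stretch, and Bc1 has no such tail either but holds an internal A-rich stretch.

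Sequences of Malat1 and Bc1 are printed because capture in this assay relies on runs of A and because a stretch of Bc1 returns below in another gene, and a Meg3 promoter because Meg3 and its neighbour Rian are compared below. The positions are those of GRCm38 (mm10). The first is the part of Malat1 around its longest run of A, which is 12 bases long and lies 298 bases before the end of the annotated transcript of 6983 bases, from the GENCODE M21 transcript sequences (chr19:5795928-5796059, minus strand), with the run in capitals. The second is the whole of Bc1, 168 bases in 1 exon with 41.67% A (chr7:144914470-144914637, plus strand, GENCODE M21), with both long A runs in capitals, the longer of which is 23 bases. The third is a Meg3 promoter from RefSeq (chr12:109540746-109541045, plus strand, GRCm38.p6) that runs over the annotated start of the gene, with the motif TGACGTCA, the full cAMP response element, in capitals.

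Malat1: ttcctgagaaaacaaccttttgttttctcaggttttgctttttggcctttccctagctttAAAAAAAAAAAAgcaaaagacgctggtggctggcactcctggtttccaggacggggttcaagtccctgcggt

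Bc1: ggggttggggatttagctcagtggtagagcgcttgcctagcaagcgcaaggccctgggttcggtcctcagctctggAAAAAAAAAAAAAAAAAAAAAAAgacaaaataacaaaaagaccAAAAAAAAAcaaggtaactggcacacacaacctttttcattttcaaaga

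Meg3 promoter: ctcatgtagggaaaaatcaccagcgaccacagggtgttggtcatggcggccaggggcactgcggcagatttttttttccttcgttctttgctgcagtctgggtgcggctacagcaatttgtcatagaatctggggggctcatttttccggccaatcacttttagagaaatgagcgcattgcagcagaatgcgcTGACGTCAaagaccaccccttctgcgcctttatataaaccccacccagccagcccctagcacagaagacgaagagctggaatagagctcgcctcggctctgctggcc

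TGACGTCA reads the same on both strands and was present in 588 of 32851 RefSeq promoters of this length (1.79%). Promoters of 6 of the 7 genes were in the RefSeq table, and Meg3 had 2 entries, of which 1 carried the motif and the other did not. The longest run of A in the longest annotated transcript was 16 bases in Meg3, 15 in Rian, 8 in Snhg11, 7 in Neat1 and 4 in Miat. The genes form 2 neighbourhoods. Malat1 (chr19:5795690-5802672, minus strand) and Neat1 (chr19:5824708-5845478, minus strand) lie 22035 bases apart, and Meg3 (chr12:109541001-109571726, plus strand) and Rian (chr12:109603940-109661716, plus strand) lie 32213 bases apart. Snhg11 (chr2:158375638-158386145, plus strand) is annotated as protein coding and Miat (chr5:112213228-112229395, minus strand) as a long intergenic noncoding RNA.

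The 6 sections held 14524 spots over tissue with expression values, and 20343701 to 37266232 UMIs per section, with a median of 10081.5 to 15360 UMIs per spot. The labels name the material as non-neuronal brain cells, but 5 neuronal marker genes (Snap25, Syt1, Rbfox3, Stmn2 and Nefl) summed to between 4352 and 5442 CPM (UMIs of a gene per 1000000 UMIs in all) in the whole sections, so these are treated as whole tissue. Spots were clustered without the 7 genes and named by region from fixed markers, and 6 regions had at least 30 spots in every section: cerebral cortex, hippocampus, thalamus, hypothalamus, cerebral nuclei (named from striatal genes such as Ppp1r1b and Penk) and fiber tracts. The E4 aged section held 196 cortical spots against 734 to 958 in the other 5, and fiber tract spots were shallow, with a median of 311.5 to 2280 UMIs. In tissue spots, fewer cells of a type and less RNA per cell cannot be told apart. The 2 5xFAD sections carry another name prefix in the deposit than the other 4, so that condition and any shared handling that the prefix may stand for cannot be told apart.

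Bc1 and Malat1 varied most between whole sections. Malat1 was at 336.6 and 326.6 CPM in the young pair (E3, then E4), 272.1 and 260.1 in the aged pair, and 184 and 140.4 in the 5xFAD pair. Bc1 was at 8728, 6603, 7507, 5815, 11400 and 4112 CPM in the same order. Malat1 was therefore lowest in both 5xFAD sections, whereas Bc1 was lower in the E4 than in the E3 section of every condition and had its highest and its lowest section among the 5xFAD pair. The highest section was 2.4 times the lowest for Malat1 and 2.77 times for Bc1.

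**Figure D1:**
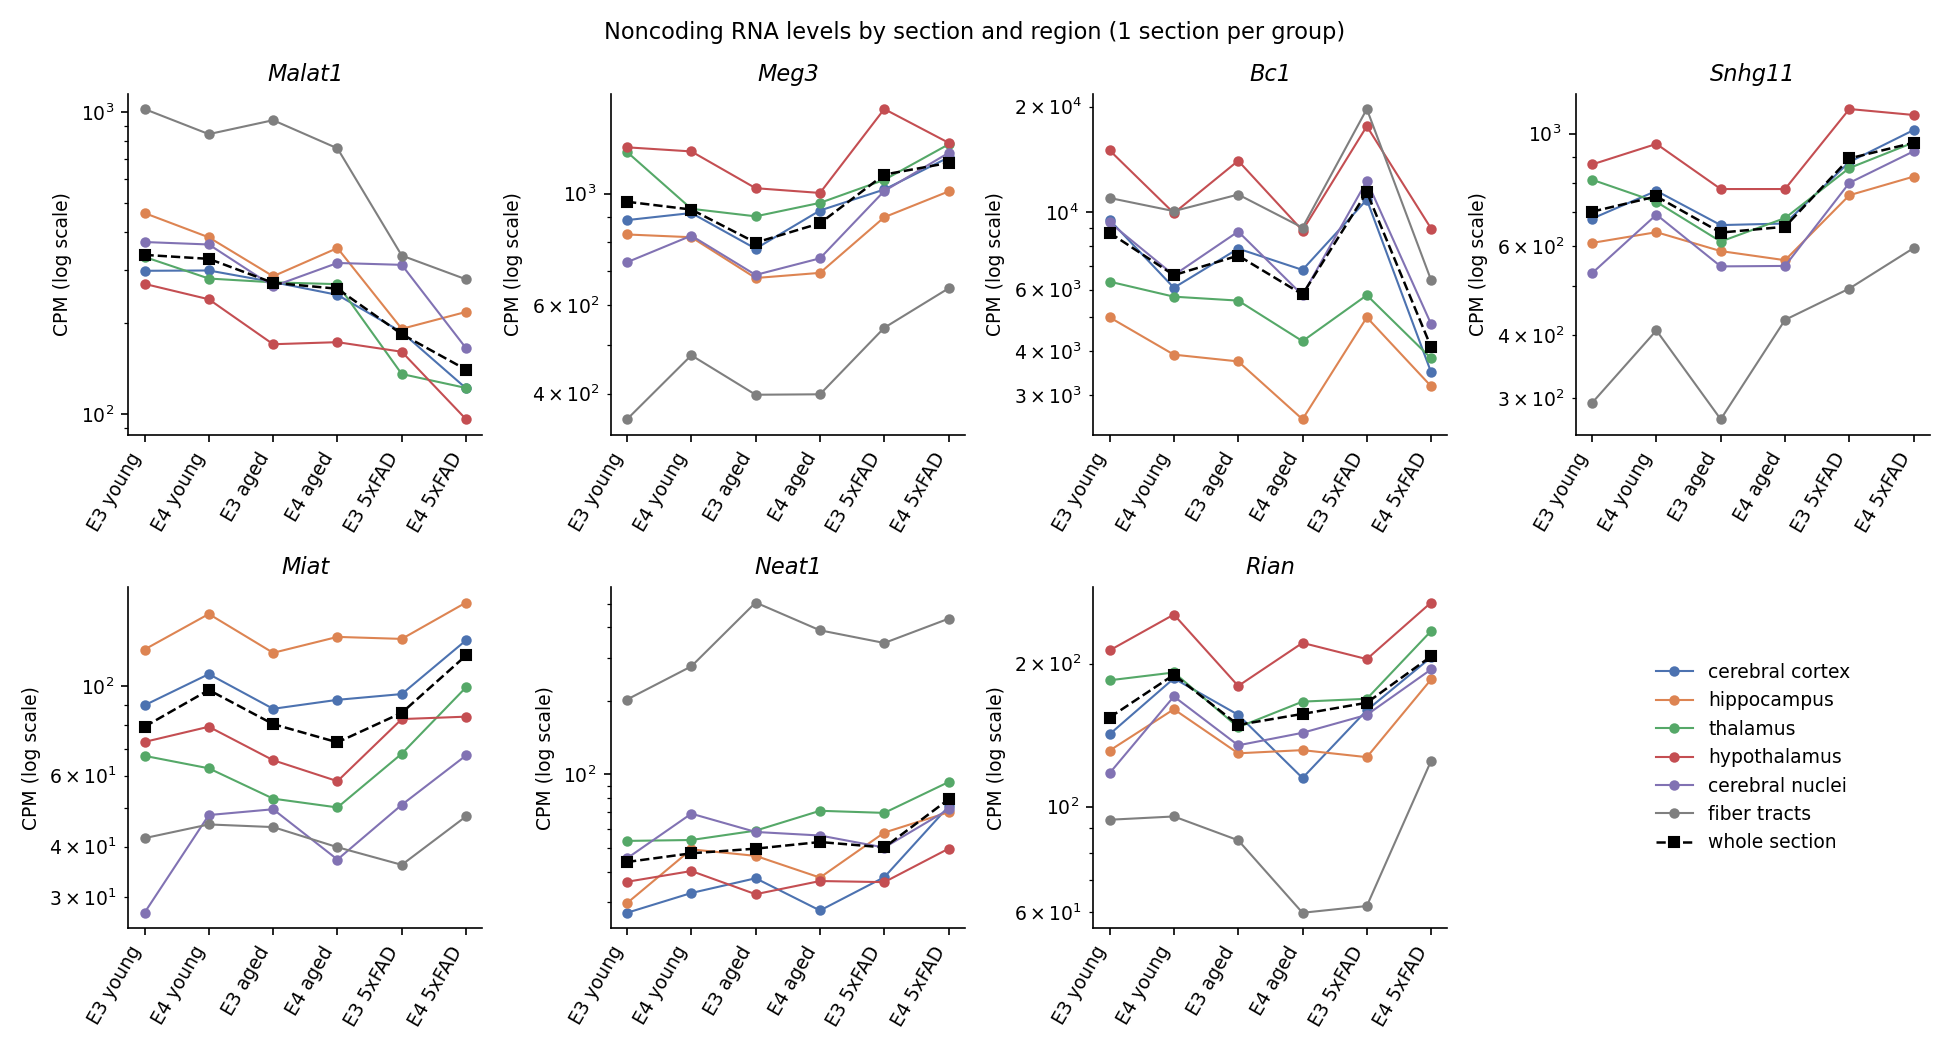
Level of each of the 7 RNAs (CPM, log axis) in the 6 sections, with coloured lines for 6 regions and a black dashed line for the whole section. Malat1 steps down in the 2 5xFAD sections, from 260.1 to 336.6 CPM in the other 4 whole sections to 184 and 140.4, while Bc1 alternates between E3 and E4.

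The other 5 RNAs spanned less. Meg3 was at 963.3, 929.6, 798.9, 872.9, 1091 and 1151 CPM over the 6 sections, and Snhg11 at 701.5, 752, 637.9, 655, 893.8 and 960.1. Both were highest in the 2 5xFAD sections. Miat was at 79.32, 97.81, 80.51, 72.55, 85.86 and 119.1 CPM, and Neat1 at 43.82, 47.56, 49.69, 52.89, 50.26 and 79.08, each with its highest value in E4 5xFAD. Rian was at 154, 189.4, 148.6, 156.7, 165.4 and 207.1 CPM, higher in the E4 than in the E3 section of each condition. The highest whole section was between 1.39 times (Rian) and 1.8 times (Neat1) the lowest for these 5.

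The regional pattern is given as a description, since regions were defined from the same spots. Within each section, every region's level was set against the mean of the 6 regions on the log2 scale, and the mean and SD over 6 sections are given. Neat1 had the steepest pattern. It was 2.37 ± 0.33 above the mean in fiber tracts, the highest region in 6 of 6 sections, at 202.6, 277, 505.5, 389, 345.2 and 434 CPM. In cortex Neat1 was at 27.15, 32.71, 37.59, 27.74, 37.97 and 73.97 CPM, so that fiber tracts and cortex did not overlap in any section. The step from fiber tracts to thalamus, the next region, was 2.40 ± 0.39 log2 units, and the spots of the ventricular system, outside the 6 regions, held 143.9 to 208.5 CPM. Fiber tracts were also the shallowest region. Within them, the lower of 3 equal parts of spots by UMIs held more Neat1 than the upper part in every section. It held 243.9 against 218.8 CPM in E3 young and 896.3 against 265.9 in E4 5xFAD. The part of depth in the regional pattern was not tested.

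Malat1 was also highest in fiber tracts in 6 of 6 sections, 1.15 ± 0.33 above the mean, at 1023, 844.8, 939.5, 758, 334.9 and 279.4 CPM. It was lowest in hypothalamus in 5 of 6, at 269.9, 240, 170.4, 173.1, 160.9 and 96.19 CPM. Hippocampus, cerebral nuclei, cortex and thalamus lay between, and cortex and thalamus (0.05 ± 0.22) and hippocampus and cerebral nuclei (0.06 ± 0.40) differed by less than their SD. By depth within fiber tracts Malat1 went both ways. The lower part by UMIs held less than the upper in E3 young (806.6 against 953.8 CPM) and more in E4 aged (1153 against 747.4).

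Meg3, Snhg11 and Rian shared a pattern opposite to that of Neat1. Meg3 was highest in hypothalamus in 6 of 6 sections, 0.49 ± 0.14 above the mean, at 1236, 1213, 1025, 1003, 1473 and 1262 CPM. It was lowest in fiber tracts in 6 of 6, at 355.8, 476.9, 398.1, 398.9, 541 and 648.1 CPM, and the step from hippocampus, the next lowest, was 0.82 ± 0.20. Snhg11 was 0.45 ± 0.09 above its mean in hypothalamus and -0.75 ± 0.22 in fiber tracts, and Rian 0.56 ± 0.13 and -0.84 ± 0.24. Rian, 213.1, 253.5, 179.4, 221, 204.3 and 268.7 CPM in hypothalamus, thus followed Meg3, its neighbour in the imprinted domain, while the step between cortex and thalamus in Snhg11 (0.002 ± 0.14) was smaller than its SD.

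Miat was highest in hippocampus in 6 of 6 sections, 0.95 ± 0.11 above the mean, at 123.2, 150.9, 120.9, 132.4, 130.9 and 161.1 CPM. Cortex came next in each section, 0.45 ± 0.07 lower, at 89.63, 107.1, 87.85, 92.47, 95.56 and 129.9 CPM. The lowest levels were in fiber tracts in 4 sections and in cerebral nuclei in 2, the latter at 27.44, 47.92, 49.53, 37.18, 50.8 and 67.34 CPM.

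Bc1 was lowest in hippocampus in 6 of 6 sections, -0.91 ± 0.22 on the same scale, at 5004, 3914, 3744, 2559, 5002 and 3179 CPM. It was highest in hypothalamus in 3 sections, at 15010, 9929, 14010, 8856, 17580 and 8967 CPM, and in fiber tracts in the other 3, at 10970, 10060, 11220, 9026, 19690 and 6386. The step between these 2 regions was 0.18 ± 0.28 and hence within its SD, whereas the step from thalamus to hippocampus, 0.45 ± 0.21, kept its order in 6 of 6 sections. Spots of the meninges, outside the 6 regions, held 8718 to 19040 CPM. Within the shallow fiber tracts, the lower part of spots by UMIs held more Bc1 than the upper part in every section. In E3 aged these parts were at 14660 and 10090 CPM, and the part of depth in the regional pattern was not tested.

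**Figure D2:**
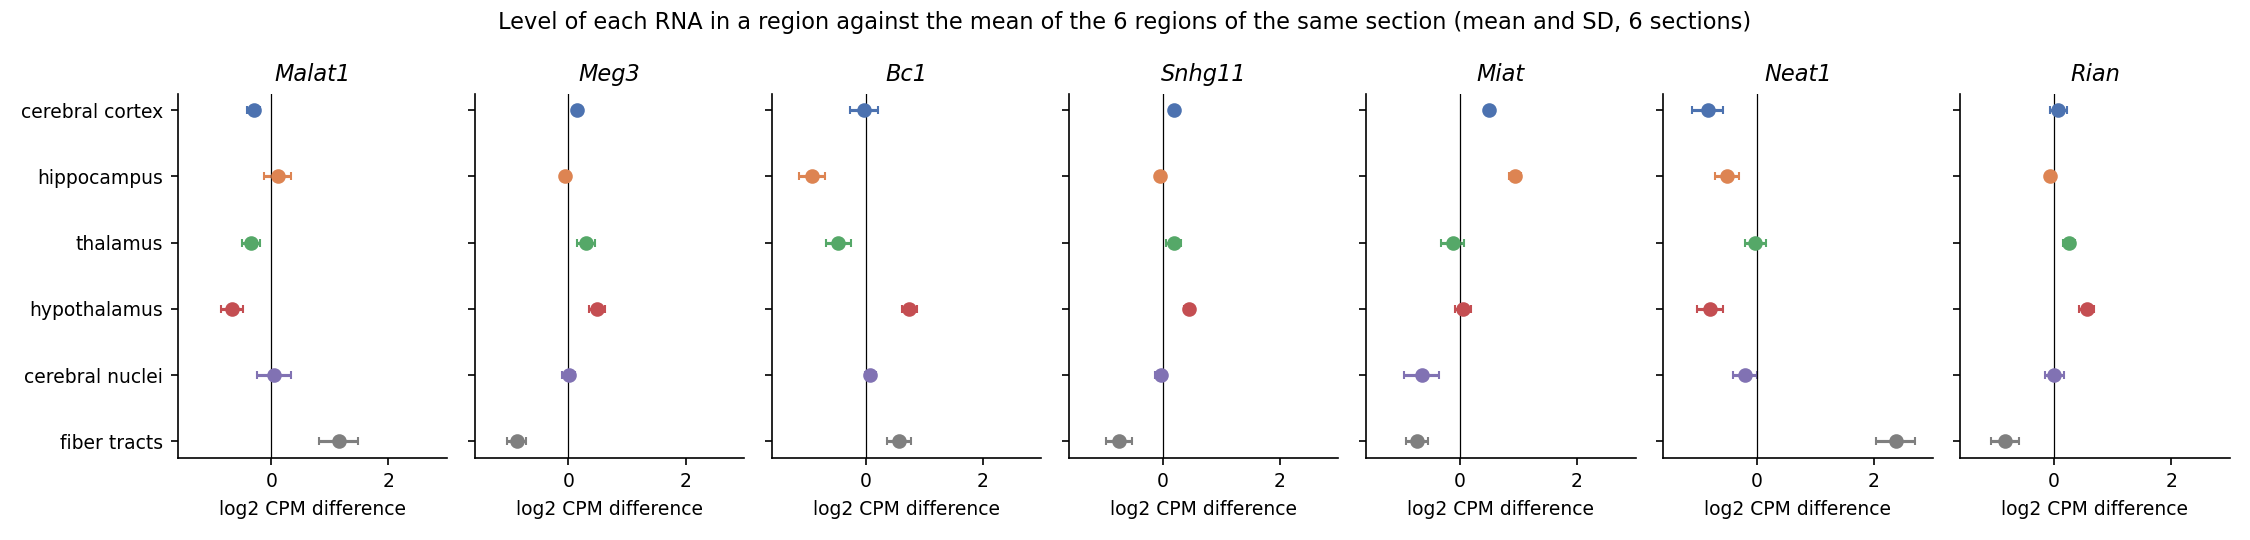
Level of each RNA in 6 regions as the log2 difference from the mean of the 6 regions of the same section, mean and SD over 6 sections. Neat1 (2.37) and Malat1 (1.15) peak in fiber tracts, Meg3, Snhg11 and Rian are lowest there, Miat peaks in hippocampus (0.95) and Bc1 is lowest in hippocampus (-0.91).

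Within hippocampus the level of Bc1 differed between clusters, and so did their depth. The cluster led by Cabp7, Spink8 and Fibcd1 in which spots held a median of 9234 UMIs had a median Bc1 of 6741 CPM over sections. The cluster led by the dentate gyrus genes C1ql2 and Dsp had 2442 CPM, and the 2 clusters with the deepest spots (medians of 27472 and 38068 UMIs) had 1715 and 1593 CPM. Miat was ordered differently, at 78.23, 194.9, 170.2 and 96.66 CPM in these 4 clusters, so that the dentate cluster was its highest. Meg3 (708.4, 649.6, 1310 and 1018 CPM) and Snhg11 (588.7, 464.1, 1052 and 735.2 CPM) were highest in the deep cluster led by Spink8 and Fibcd1, markers of pyramidal cells. Neat1, at 71.64 CPM, was highest in the shallow cluster, where Bc1 peaked too, against 30.34 to 36.83 CPM in the other 3.

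The genes whose regional pattern was most like that of each RNA were taken from 3803 genes with a mean of at least 50 CPM, by Pearson's r of log2 values centred within sections over 47 sums of a region in a section. These sums share sections and depth, so that r is a description. Neat1 was most like Car2 (0.957), Cd9 (0.949) and Plaat3 (0.948), the first of which is carbonic anhydrase II, an oligodendrocyte enzyme in brain. Meg3 was most like Snhg11 (0.949), Rian (0.929) and Ttc3 (0.927), and Snhg11 was most like Meg3, Ttc3 (0.939) and Pnmal1 (0.927). Rian was most like Meg3, Clstn3 (0.914) and Flywch1 (0.899). Miat was most like Abr (0.883), Calm3 (0.871), which encodes calmodulin, and Chgb (0.857), a protein of secretory granules. Malat1 was less tightly matched, to Gpm6b (0.838), Fth1 (0.833) and Ppp1r16b (0.832). Among the 7, Malat1 ran with Neat1 (0.688) and against Meg3 (-0.639), and Meg3 ran against Neat1 (-0.831).

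Bc1 had 1 gene that stood apart from all others in this measure, Lrrc17 (0.978), followed by Cspg5 (0.792) and Rps29 (0.773). Lrrc17 encodes a secreted leucine-rich repeat protein. A stretch of 91 bases in the last of its 4 exons, in the 3′ untranslated part and on the same strand, is 97.8% identical to bases 1 to 91 of Bc1, with 2 mismatches and 0 gaps. That stretch covers the part of the printed Bc1 sequence up to and into its longer A run. Lrrc17 held between 32.05 and 55.84 UMIs per 1000 Bc1 UMIs (median 42.74) in 36 sums of 6 regions and 6 sections, while Bc1 itself ran from 2559 to 19690 CPM and Lrrc17 from 90.37 to 1036 CPM. Of 14 genes with a stretch of at least 70 bases and 90% identity to Bc1, 13 were in the files and 10 had at least 1000 UMIs, and Lrrc17 was the only one of them with r of 0.9 or more with Bc1. Timm22, for example, had 0.561, Sez6 0.012 and Mrps7 -0.273. The Lrrc17 count is therefore reported as uncertain: reads shared with Bc1 were not tested for, and Lrrc17 was looked at after its values were seen.

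**Figure D3:**
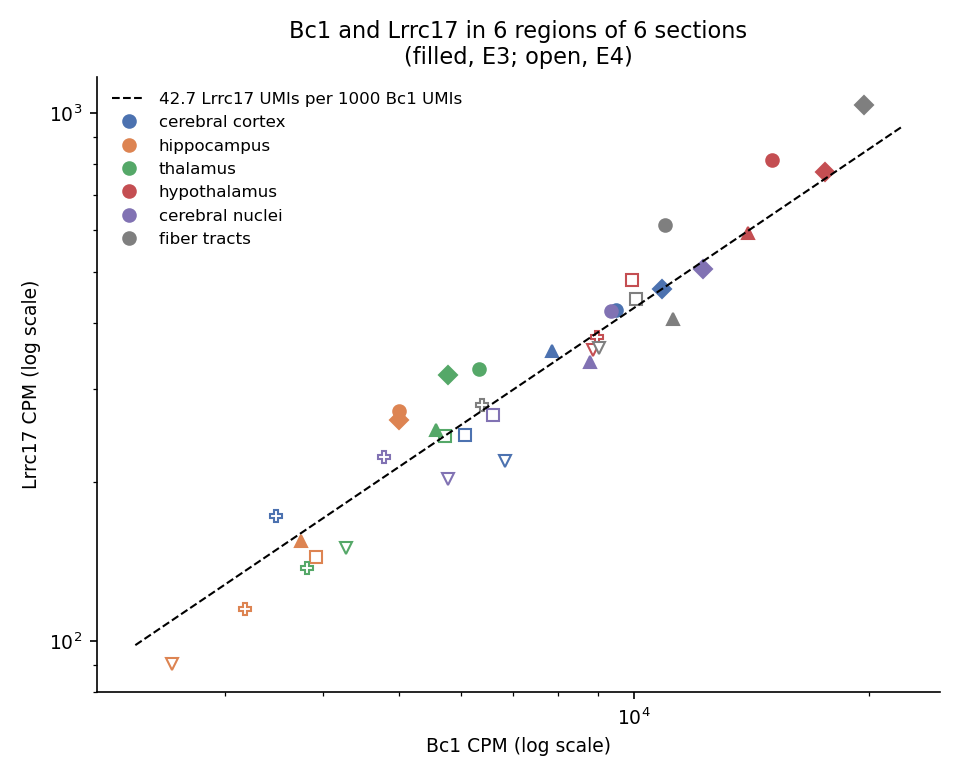
Lrrc17 against Bc1 (CPM, both axes log) for 6 regions of 6 sections, 36 points, with a dashed line at 42.7 Lrrc17 UMIs per 1000 Bc1 UMIs. Points range from 32.05 to 55.84 per 1000. In hippocampus the E3 sections (54.56, 41.34 and 52.46) lay above the E4 ones (36.85, 35.32 and 36.13). Thalamus was alike (51.73, 44.89 and 55.17 in E3 against 42.62, 35.1 and 35.97 in E4). In cortex the 5xFAD pair went the other way (42.86 in E3 against 49.55 in E4).

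To set nuclear against dendritic RNA, spots of hippocampus and of cortex were ranked within each section by the ratio of 18 neuronal transcription factor genes, whose RNAs stay near the cell body, to 14 mRNAs known from dendrites, such as Camk2a, Ddn and Shank1. The upper and lower of 3 equal parts are called soma-rich and dendrite-rich, names that stand for this ratio only. In hippocampus the parts differed mostly in the transcription factors, at 1.77 to 2.32 times in soma-rich spots. The dendritic mRNAs were at 0.794 to 0.986 times there. None of the 7 RNAs entered the ranking. In hippocampus, Bc1 was at 10740 CPM in dendrite-rich and 2708 in soma-rich spots of E3 young, and at 5904 and 2036 in E4 young. The aged sections were at 8300 and 1974 (E3) and 5401 and 1004 (E4), and those of 5xFAD at 9852 and 2890 (E3) and 5371 and 1637 (E4). Bc1 was thus lower in soma-rich spots in 6 of 6 sections, with a ratio of 0.186 to 0.345, and every dendrite-rich value lay above every soma-rich value.

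In a fit over these 12 sums with section as a block, 5 of the 7 RNAs passed an adjusted p under 0.05 in hippocampus (edgeR quasi-likelihood test, Benjamini-Hochberg adjustment over all genes), where 31.3% of all genes passed. Bc1 fell by 2.16 ± 0.07 on the log2 scale (SE, adjusted p = 2.89e-34) in soma-rich spots. Neat1 (-1.04 ± 0.11, adjusted p = 1.1e-11) and Malat1 (-0.68 ± 0.07, adjusted p = 1.68e-13) fell too, although both are nuclear RNAs. Miat rose by 0.61 ± 0.09 (adjusted p = 4.18e-08) and Meg3 by 0.19 ± 0.06 (adjusted p = 0.00582), the latter losing its call without E4 young (0.16, adjusted p = 0.0583). Snhg11 (-0.03, adjusted p = 0.799) and Rian (0.09, adjusted p = 0.425) did not pass. Both were called higher with total UMIs in place of TMM scaling (0.22, adjusted p = 0.00274, and 0.33, adjusted p = 0.000886), which moved the median of all genes from 0.02 to 0.26.

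The nuclear RNAs thus went both ways. Malat1 was lower in soma-rich spots in 6 of 6 sections, at 560.4 (dendrite-rich) against 434.3 CPM (soma-rich) and 483.3 against 299.4 in the young pair, 321.2 against 291.7 and 386.7 against 311.1 in the aged pair, and 251.4 against 154.2 and 255.2 against 185 in the 5xFAD pair. Neat1 ran from 49.45 to 86.37 CPM in dendrite-rich and from 24.39 to 56.47 in soma-rich spots, lower in the latter in 6 of 6 sections. Miat was the opposite, at 58.81 to 109.4 CPM in dendrite-rich and 132 to 193.3 in soma-rich spots, without overlap. Meg3 was higher in soma-rich spots in 6 of 6 sections, by a ratio of 1.11 to 1.49.

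Other genes and depth moved with this split. Soma-rich hippocampal spots held 1.5 to 3.09 times the UMIs of dendrite-rich spots, and in them all of 5 astrocyte, 5 microglia, 4 endothelium and 8 oligodendrocyte markers and 13 of 13 mitochondrially encoded genes were called lower. Depth alone went with the RNAs as well. The lower of 3 equal parts of hippocampal spots by UMIs held 2.72 to 6.47 times the Bc1, 2.39 to 6.79 times the Neat1 and 1.25 to 2.11 times the Malat1 of the upper part, and 0.285 to 0.564 times the Miat. A further split, chosen after seeing the data, took the 2 highest and 2 lowest ratios in each run of 6 spots of neighbouring depth, which brought the depth ratio to between 0.989 and 1.05. With it, 1 of 7 RNAs passed in hippocampus: Bc1 fell by 0.38 ± 0.06 (adjusted p = 0.000127), lower in 6 of 6 sections at 0.542 to 0.905 of the dendrite-rich level. Malat1 (-0.05, adjusted p = 0.899), Neat1 (0.01, adjusted p = 0.998), Miat (0.03, adjusted p = 0.963) and Meg3 (0.003, adjusted p = 0.998) were near 0 there. This narrower split separated the transcription factors less, by a ratio of 1.18 to 1.52 against 1.77 to 2.32 in the first. It did not separate the dendritic mRNAs less, which were at 0.78 to 0.866 against 0.794 to 0.986.

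**Figure D4:**
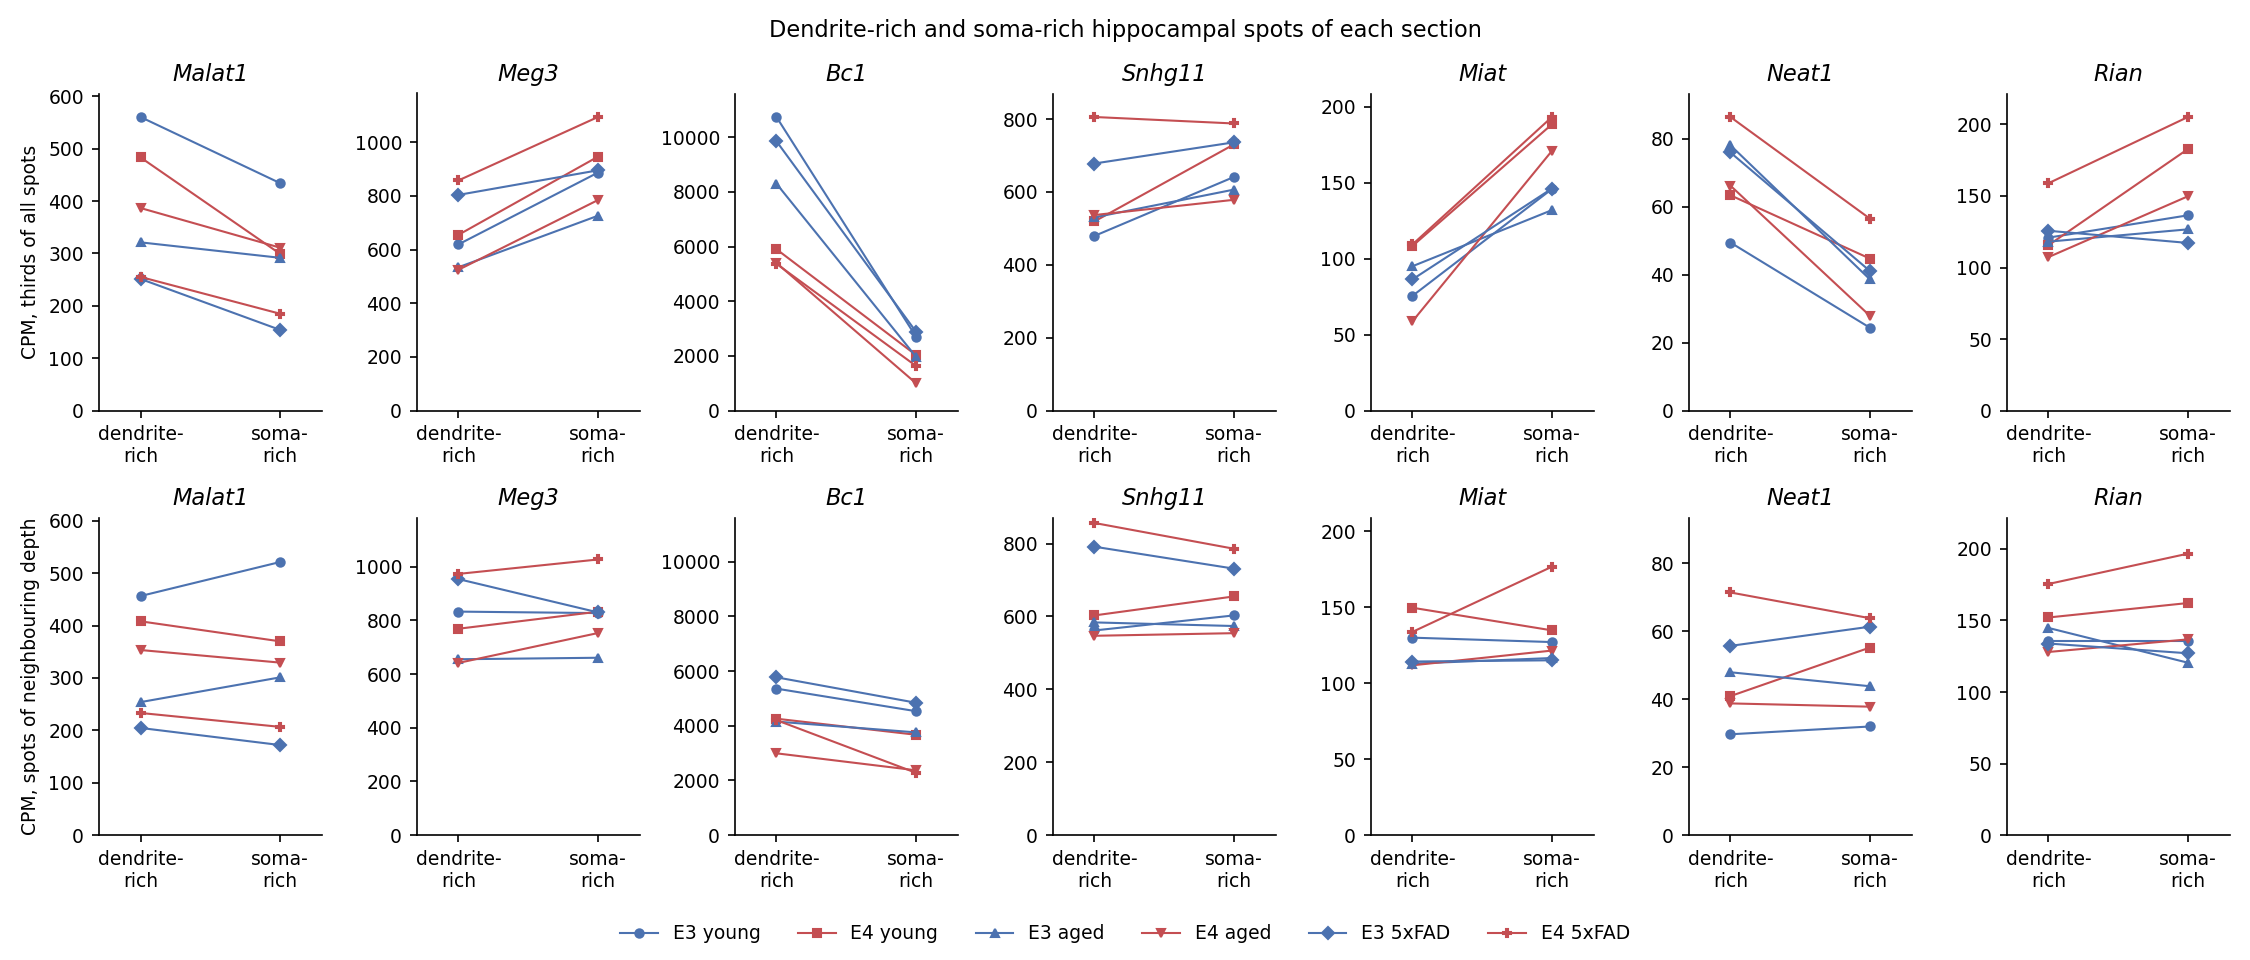
Level of the RNAs (CPM) in dendrite-rich and soma-rich hippocampal spots, a line per section, E3 blue and E4 red, with all spots in the upper row and spots of neighbouring depth in the lower row. Bc1 drops in 6 of 6 sections in both rows, while the opposite slopes of Malat1, Neat1 and Miat in the upper row are flatter in the lower row.

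In cortex, where soma-rich spots held 0.924 to 1.24 times the UMIs of dendrite-rich spots, Bc1 was the 1 RNA of 7 to pass, against 7.5% of all genes. Dendrite-rich against soma-rich spots were at 9951 against 9100 and 6603 against 5797 CPM in the young pair, 8442 against 7281 and 8806 against 5911 in the aged pair, and 12340 against 9681 and 3615 against 3322 in the 5xFAD pair. Bc1 fell by 0.30 ± 0.04 (adjusted p = 3.33e-06), with a lower value in 6 of 6 sections. At neighbouring depth it fell by 0.23 (adjusted p = 7.42e-07), and Malat1 passed too, by -0.13 (adjusted p = 0.0457, against -0.14 and 0.0626 over all spots). Malat1 was then lower in soma-rich spots in 4 of 6 sections. Both 5xFAD sections went the other way, at 198.4 against 191.5 CPM in E3 and 122.9 against 120.5 in E4. In the fit over all spots 6 of 8 oligodendrocyte markers were called higher, and 12 of 13 mitochondrially encoded genes and 4 of 5 astrocyte markers lower, and their part in the Bc1 value was not tested.

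Lists of related genes were counted in the same fits, as a description. In hippocampus the share called among the paraspeckle and speckle proteins and among the other long noncoding RNAs was near the 31.3% of all genes, and the remaining lists held 9 to 13 tested genes, so nothing is read from these counts about a list. Of 24 genes tested in hippocampus from the paraspeckle and speckle list, 7 rose and 0 fell in soma-rich spots by edgeR, and DESeq2 called 4. The list also takes in Celf3 (0.74), a Miat-binding splicing factor, which was among the 7 with Matr3 (0.41). Its median was 0.17 against 0.02 over all genes. Of 10 proteins reported to bind Bc1, Eif4a1 (0.45), the helicase of translation initiation, and Fmr1 (0.34) were among 4 that rose, while Pabpc1 (-0.50), the poly(A)-binding protein, and Pura (-0.33) fell. Of 33 other long noncoding RNAs, 4 rose, with Ftx (0.70) and Snhg1 (0.40) the largest, and 7 fell, with Rmst (-1.13) and Sox2ot (-0.87) the largest. Of 9 genes of the Dlk1-Dio3 domain, Meg3 rose and Begain fell (-0.55), and 3 of 13 small nucleolar RNA host genes rose. In cortex, 0 of 24 paraspeckle and speckle proteins passed by edgeR and 0 by DESeq2, with 3 at an unadjusted p under 0.05, and of the other lists Pabpc1 (-0.15), Pantr1 (-0.36) and Gm11549 (-0.23) fell.

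The 5 RNAs taken as nuclear (Malat1, Meg3, Miat, Neat1 and Rian) together made up 0.1577% and 0.1591% of the UMIs in the young pair, 0.135% and 0.1415% in the aged pair, and 0.1576% and 0.1696% in the 5xFAD pair. Their UMIs over those of Bc1 were 0.1807, 0.241, 0.1798, 0.2433, 0.1383 and 0.4126 in the same order. The ratio was thus higher in E4 than in E3 in every condition, and its widest gap, within the 5xFAD pair, came with the highest and lowest Bc1 of the 6 sections. Without Malat1 it was 0.1421, 0.1915, 0.1436, 0.1986, 0.1222 and 0.3785.

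The make-up of the nuclear sum differed more than its size. Malat1 was 21.34%, 20.53%, 20.16% and 18.38% of it in the young and aged sections, and 11.67% in E3 5xFAD and 8.274% in E4 5xFAD. Malat1 per Meg3 UMI was 0.3494, 0.3514, 0.3406, 0.298, 0.1687 and 0.122. Both 5xFAD sections lay below the other 4 in each of these, so that the nuclear RNAs did not move as 1 group between sections. By region, the nuclear RNAs per Bc1 UMI were highest in hippocampus (0.2809 to 0.5284) in 6 of 6 sections. They were lowest in hypothalamus (0.1052 to 0.1963) in 4 of 6, and in fiber tracts in E4 young (0.1728) and E3 5xFAD (0.067).

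Differences between conditions and genotypes were tested in each region in a fit over its 6 section sums with genotype and condition as additive terms, which leaves 2 residual degrees of freedom (edgeR quasi-likelihood test, adjusted over all genes of the region). The test pools the spread of each gene with that of the other genes of the region, so that a p-value does not rest on the 2 degrees of freedom of an RNA alone. All of that spread is between these 6 sections, and none is between animals of 1 group. For 5xFAD against young, 7 of 41 tested pairs of an RNA and a region passed, 6 of them Malat1, and 19 pairs had an unadjusted p under 0.05. All genes passed at 1.05% in cortex, 1.28% in hippocampus, 1.87% in thalamus, 0.298% in hypothalamus, 1.16% in cerebral nuclei and 2.21% in fiber tracts. Miat could not be tested in fiber tracts, where it was under the filter on low counts.

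Malat1 was lower in 5xFAD in all 6 regions. In cortex it was at 298.2, 298.9, 273.6 and 248.2 CPM in the young and aged sections and at 186.8 and 121.8 in E3 and E4 5xFAD. In hippocampus it was at 463, 384.8, 286 and 354.6 against 191.6 and 218, and in thalamus at 331.5, 281.1, 273.1 and 269.3 against 135.8 and 122.1. Both 5xFAD sections lay below the other 4 in 5 of 6 regions, the exception being cerebral nuclei, where E3 5xFAD (312 CPM) lay within the range of the others (264.9 to 371.3) and E4 5xFAD (165.3) below it. In each genotype the log2 ratio of 5xFAD to young and its counting interval were below 0 in 6 of 6 regions, at -1.611 to -0.251 in E3 and -1.596 to -0.82 in E4.

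In the fits Malat1 fell by 1.66 ± 0.17 in fiber tracts (SE, adjusted p = 2.23e-09), 1.33 ± 0.11 in thalamus (adjusted p = 4.5e-05), 1.12 ± 0.13 in hippocampus (adjusted p = 9.06e-05), 1.07 ± 0.15 in cortex (adjusted p = 0.0213), 1.06 ± 0.15 in hypothalamus (adjusted p = 0.00407) and 0.74 ± 0.17 in cerebral nuclei (adjusted p = 0.0249). The calls in fiber tracts, thalamus and hippocampus held under every alternative run. The call in cortex was lost without E4 young (-0.86, adjusted p = 0.204), and that in hypothalamus without E3 young (-1.15, adjusted p = 0.225) or E4 young (-0.98, adjusted p = 0.223). In cerebral nuclei it was lost without E4 5xFAD (-0.26, adjusted p = 0.852), with DESeq2 (-0.74, adjusted p = 1) and with spots of at least 5000 UMIs (-0.72, adjusted p = 0.106). That Malat1 is lower in 5xFAD cortex and hippocampus was known from these data before, and is no independent support.

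Several other measures moved with Malat1 in 5xFAD, and their part in its fall was not tested. Gm42418, which lies over a copy of ribosomal RNA sequence, was called lower in 6 of 6 regions, by -1.11 to -0.94, and was at 887.3, 601, 973.3, 910.2, 450 and 315.9 CPM in the whole sections. The 13 mitochondrially encoded mRNAs summed to 127300 to 136600 CPM in the young and aged sections and to 113200 and 93120 CPM in E3 and E4 5xFAD, and 12 of 13 were called lower in hippocampus, 9 in cerebral nuclei, 1 each in thalamus and fiber tracts, and 0 in cortex and hypothalamus, where 12 of 13 had an unadjusted p under 0.05 in each and DESeq2 called 10 and 0. The 5 microglial markers summed to 272.1 to 372.6 CPM in the young and aged sections and to 761.7 and 867.1 CPM in 5xFAD, and 4 of 5 were called higher in cortex, hippocampus, thalamus and cerebral nuclei. Of 8 oligodendrocyte markers, 8 were called lower in 5xFAD in cerebral nuclei, 7 in fiber tracts, 4 in hippocampus, 1 in hypothalamus and 0 in cortex and thalamus by edgeR or DESeq2, where 4 and 5 had an unadjusted p under 0.05. Their median log2 fold change was below 0 in each region, from -1.021 in cerebral nuclei to -0.305 in cortex. Neuronal markers gave 0 calls in 30 tests over the 6 regions by edgeR and 0 in 29 by DESeq2, with 3 at an unadjusted p under 0.05. With 0.298% to 2.21% of all genes called in a region, 0 calls in so few tests says nothing about these markers.

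The 1 other call for 5xFAD was Meg3 in cerebral nuclei. Meg3 was there at 730.3, 824.7, 689.1 and 743.5 CPM in the young and aged sections and at 1012 and 1205 in 5xFAD, without overlap, and rose by 0.42 ± 0.10 (adjusted p = 0.0304). The call was lost without E3 young (0.44, adjusted p = 0.146), E4 young (0.40, adjusted p = 0.348), E3 5xFAD (0.46, adjusted p = 0.259) or E4 5xFAD (0.39, adjusted p = 0.484), and with DESeq2 (0.42, adjusted p = 0.371). Over the 6 regions both 5xFAD sections lay above the other 4 in 5 for Meg3 and in 6 for Snhg11, whose log2 fold changes ran from 0.14 to 0.58 with a smallest adjusted p of 0.0506. Neat1 ran from 0.03 to 0.78 (smallest adjusted p = 0.0693), Miat from 0.02 to 0.63 and Rian from -0.13 to 0.22, none past the threshold.

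Bc1 gave 0 calls in 6 regions for 5xFAD by edgeR or DESeq2, with 2 at an unadjusted p under 0.05. In cortex it was at 9495 and 6077 CPM in E3 and E4 young and at 10850 and 3484 in E3 and E4 5xFAD, with a fold change of -0.34 ± 0.29 (adjusted p = 0.76). In hippocampus the fold change was -0.22 ± 0.08 (adjusted p = 0.354). The cortical value turned on both 5xFAD sections, which lay on opposite sides of the young ones: it was 0.23 (adjusted p = 0.999) without E4 5xFAD and -1.04 (adjusted p = 0.000658) without E3 5xFAD.

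**Figure D5:**
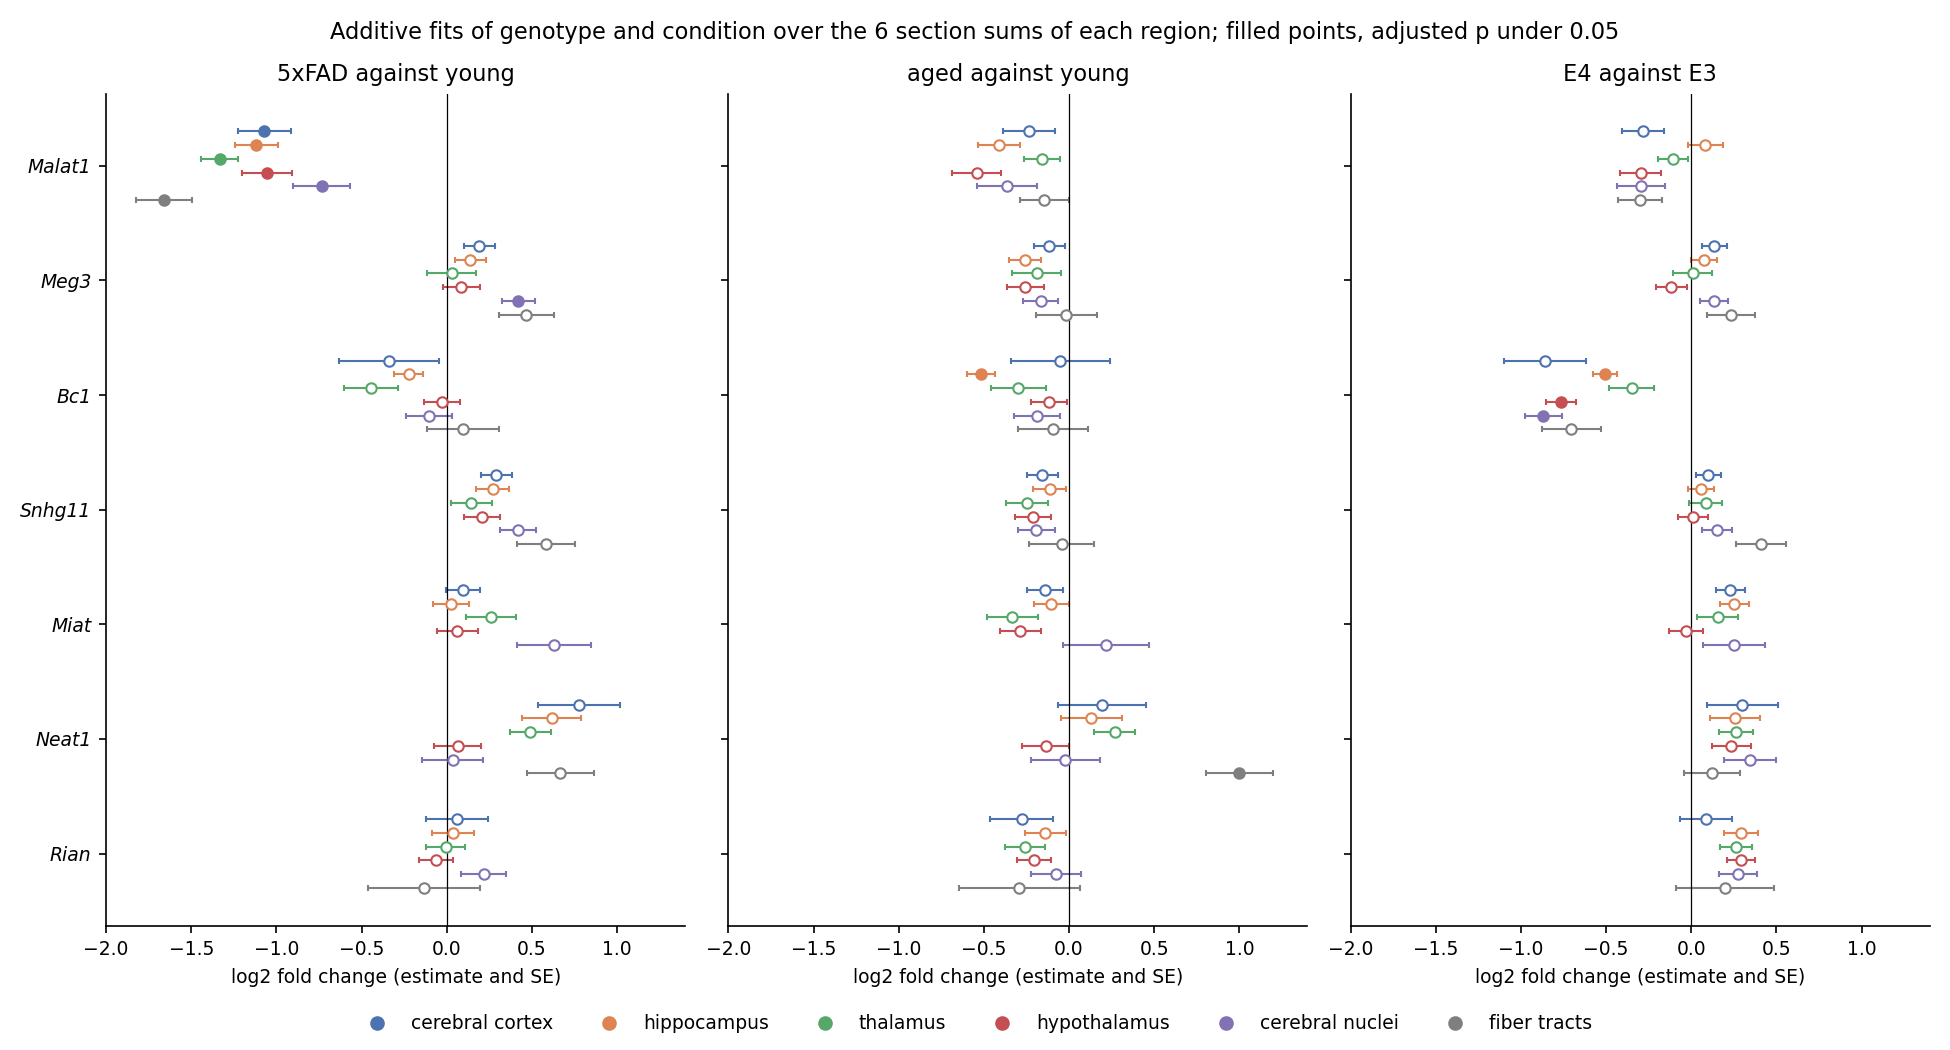
Log2 fold change and SE of each RNA in 6 regions for 5xFAD against young, aged against young and E4 against E3, from the additive fits; filled points have an adjusted p under 0.05. Filled points are Malat1 in 6 regions and Meg3 in 1 for 5xFAD, Bc1 and Neat1 in 1 region each for age, and Bc1 in 3 regions for E4.

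For E4 against E3, 3 of 41 pairs passed, all of them Bc1 (18 had an unadjusted p under 0.05), against a background of 0.136% of genes in hippocampus, 0.0612% in hypothalamus, 0.0459% in cerebral nuclei, 0.0134% in cortex, 0.015% in thalamus and 0.0441% in fiber tracts. Bc1 was lower in E4 than in E3 in 6 of 6 regions in each of 3 conditions, with counting intervals that cover sampling error only and lay below 0 in all 18. The median log2 ratio over the regions was -0.43 in the young pair, -0.47 in the aged pair and -1.17 in the 5xFAD pair. The order thus held within each condition, with 1 section per genotype in each. The 5xFAD pair, with the widest gap, also differed in the counting software version in the file header (2.0.0 in E3, 1.2.2 in E4). The share of its tissue-mask spots with a matching barcode differed too (99.93% and 81.35%), and the part of either in the gap was not tested. All 3 E4 sections lay below all 3 E3 sections in 4 of 6 regions.

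In hypothalamus, Bc1 was at 15010, 14010 and 17580 CPM in the E3 young, aged and 5xFAD sections and at 9929, 8856 and 8967 in the E4 ones, and fell by 0.77 ± 0.09 (SE, adjusted p = 0.00268). In cerebral nuclei it was at 9341, 8796 and 12270 against 6602, 5789 and 4784 CPM and fell by 0.87 ± 0.11 (adjusted p = 0.000108). In hippocampus it was at 5004, 3744 and 5002 against 3914, 2559 and 3179 CPM, where E4 young lay above E3 aged, and fell by 0.51 ± 0.07 (adjusted p = 0.00391). Bc1 did not pass in cortex (-0.86 ± 0.24, adjusted p = 0.894), fiber tracts (-0.71 ± 0.17, adjusted p = 0.177) or thalamus (-0.35 ± 0.13, adjusted p = 0.865).

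Several of these values turned on single settings. The hypothalamic call for Bc1 was lost without E3 young (-0.84, adjusted p = 0.134) or E4 young (-0.84, adjusted p = 0.0572), and that in cerebral nuclei with DESeq2 (-0.87, adjusted p = 1). In cortex Bc1 passed without E3 aged (-1.18, adjusted p = 0.0419) or without E4 aged (-1.18, adjusted p = 0.0318). The hippocampal call was lost with spots of at least 5000 UMIs (-0.34, adjusted p = 0.533).

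Depth moved with genotype in 2 of the regions with a call. The median UMIs per hippocampal spot were 7955, 12497.5 and 5677 in the E3 young, aged and 5xFAD sections and 17736, 12783 and 16187 in the E4 ones. In hypothalamus they were 14630.5, 15033 and 15666 against 17587.5, 18090.5 and 18799.5, and E4 was deeper in every condition in both. In cerebral nuclei the ranges overlapped, at 11933, 9444 and 8226 against 9509, 10296 and 7642. Gm42418 was called lower in E4 in hippocampus (-0.59, adjusted p = 0.0455). The 14 dendritic mRNAs gave 0 calls in 82 tests over the 6 regions (19 at an unadjusted p under 0.05) and the 10 Bc1-binding proteins 0 in 60 (5), by edgeR and by DESeq2, where at most 0.136% of all genes passed. Lrrc17, which shares the Bc1-like stretch, fell in the E4 hippocampus as well (-0.95, adjusted p = 7.26e-05). This was not particular to hippocampus, since Lrrc17 was lower in E4 than in E3 in each condition in every region. In the whole sections it was at 430.4, 328.7 and 510.7 CPM in E3 and 286.8, 214.9 and 181.4 in E4.

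Malat1 did not pass for E4 in cortex (-0.28, adjusted p = 0.894) or hippocampus (0.08, adjusted p = 0.948), the latter turning to -0.04 without E3 aged (adjusted p = 0.994) or without E4 aged (adjusted p = 0.995). Rian was at 0.09 to 0.29 and Neat1 at 0.12 to 0.34 over the 6 regions for E4, all above 0 and none past the threshold.

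For aged against young, 2 of 41 pairs passed (11 had an unadjusted p under 0.05), against a background of 0.401% of genes in hippocampus, 0.199% in fiber tracts, 0.0201% in cortex, 0.142% in thalamus, 0.168% in hypothalamus and 0.211% in cerebral nuclei. Bc1 in hippocampus was at 5004 and 3914 CPM in E3 and E4 young and at 3744 and 2559 in the aged sections, and fell by 0.52 ± 0.08 (SE, adjusted p = 0.00706). Both aged sections were below both young ones. The call was lost without E4 young (-0.39, adjusted p = 0.944), with spots of at least 5000 UMIs (-0.47, adjusted p = 0.228), with clusters not centred within sections (-0.39, adjusted p = 0.0614) and with the same number of spots per cluster (-0.46, adjusted p = 0.0608). In the same fit 6 of 8 oligodendrocyte markers were called lower, and 4 of 4 hemoglobin genes and 14 of 15 immediate early genes higher, and their part in the Bc1 value was not tested. In cortex Bc1 was at -0.05 (adjusted p = 1) and its sign turned without E4 young (0.13, adjusted p = 1) or E3 aged (0.38, adjusted p = 0.487).

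Neat1 in fiber tracts was at 202.6 and 277 CPM in E3 and E4 young and at 505.5 and 389 in the aged sections, and rose by 0.999 ± 0.197 (adjusted p = 0.0102). E3 5xFAD (345.2 CPM) lay between the young and aged sections of its genotype, whereas E4 5xFAD (434 CPM) lay above both of its own. The call was lost without E3 young (0.67, adjusted p = 0.944), E3 aged (0.51, adjusted p = 0.816) or E4 5xFAD (0.98, adjusted p = 0.0606), with DESeq2 (0.93, adjusted p = 0.999) and with the same number of spots per cluster (0.95, adjusted p = 0.225). Of 8 oligodendrocyte markers 0 were called for age in fiber tracts by edgeR or DESeq2, and 0 had an unadjusted p under 0.05. With 0.199% of all genes called there, 0 calls says nothing about these markers, and their part in the Neat1 value was not tested. The spots there held a median of 2280 and 815.5 UMIs in E3 and E4 young and 520 and 311.5 in the aged sections, so that the aged spots were shallower in both genotypes.

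Malat1 ran from -0.54 to -0.15 over the 6 regions by age, with -0.23 in cortex (adjusted p = 0.954) and -0.41 in hippocampus (adjusted p = 0.417). It passed in hippocampus when every gene with at least 1 UMI was kept (-0.41, adjusted p = 0.0229), without E4 young (-0.66, adjusted p = 0.0146), without E4 aged (-0.58, adjusted p = 0.0148), without E3 5xFAD (-0.40, adjusted p = 0.00209) and without E4 5xFAD (-0.41, adjusted p = 0.00253). Meg3 (-0.26 to -0.02), Snhg11 (-0.25 to -0.04) and Rian (-0.29 to -0.08) were below 0 in all 6 regions by age, with no call.

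Lists of related genes were counted in these fits too. For age and E4, 0.0134% to 0.401% of all genes passed in a region, so that 0 calls in lists of this size says nothing about their members. For 5xFAD the share was 0.298% to 2.21%, and 0 or few calls are likewise not read as a result about a list. Of the other long noncoding RNAs tested, 14 to 36 per region, 0 were called for age or E4 by edgeR or DESeq2, and of 182 tests over the 6 regions 22 and 27 had an unadjusted p under 0.05. In 5xFAD, 5 of 182 tests of this list were called by edgeR and 1 of 160 by DESeq2. By edgeR, B230209E15Rik fell in cortex (-2.45) and thalamus (-1.56), Sox2ot in cerebral nuclei (-1.69) and fiber tracts (-1.45), and Gas5 in fiber tracts (-0.69). The median of the list lay between -0.114 and -0.017 against -0.006 to 0.002 over all genes. Paraspeckle and speckle proteins, among them partners of Neat1 and Malat1, gave 0 calls of 139 tests by edgeR for each of the 3 contrasts. DESeq2 gave 0 too, in 127 tests for 5xFAD and 139 each for age and E4. By edgeR 10, 5 and 24 had an unadjusted p under 0.05 for 5xFAD, age and E4. Of 60 tests of Bc1-binding proteins in 5xFAD, 3 were called by edgeR, against 1 of 55 by DESeq2. Pabpc1 fell in cortex (-0.62) and cerebral nuclei (-0.60), and Pura in cortex (-0.61). Of 52 tests of the Dlk1-Dio3 domain in 5xFAD, Meg3 in cerebral nuclei was the 1 call. Of 82 tests of the dendritic mRNAs in 5xFAD, 1 was called, Kif5a, which fell in fiber tracts (-0.80).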

How the data were processed

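The authors sequenced Visium libraries of 10 µm coronal sections of 6 brains and counted UMIs with Space Ranger (1.3.0 in the submitters' notes, with STAR 2.5.1b and mm10 and GRCh38; the headers of the deposited matrices name 2.0.0 for E3 5xFAD and 1.2.2 for the other 5). The deposited values are raw counts of UMIs per gene and spot. Of 16979 spots in the deposited tissue masks, 14524 had a matching barcode (75.87% to 99.93% per section) and were used; 2736 barcodes outside the masks were not. Barcodes shared by sections (3380 of 3964) are the slide's fixed layout. A spot holds several cells, so no doublet caller was run.

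Spots were clustered with Seurat 5.3.0 (3000 variable genes without the 7 RNAs, of which 5 would have been among them, centred within sections; 20 components, 20 neighbours, resolution 0.8), and the 20 clusters were named by the highest mean score of fixed markers. A cluster without a clear name stayed unnamed, a rule set after seeing the data. Levels are summed UMIs as CPM (per 1000000 UMIs), and their 95% intervals cover counting error only. Counts summed per region and section were tested with edgeR 4.0.16 in R 4.3.3 (TMM, filterByExpr, glmQLFTest), with genotype and condition as terms, or with section as a block for soma-rich against dendrite-rich spots, at a Benjamini-Hochberg adjusted p under 0.05. DESeq2 1.42.0, other scalings, filters, clusterings, spot choices and each section left out were alternatives. Named fold changes are those of Malat1 and Bc1 in cortex and hippocampus and of every RNA and region that passed; list genes named are those called, at most 2 per direction where many were. Lrrc17 was named after its values were seen, by a BLASTN 2.17.0 search of Bc1 against the transcripts.

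On simulated counts the fit recovered 35.8%, 81.8% and 98.4% of genes changed 1.5, 2 and 4 times in cortex for 5xFAD against young (14886 genes). The 7 RNAs and all lists were chosen with earlier results of these data known. All but 3 of the human genes in the matrices were left out. Slides and runs are not given in the sources used here.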

Additional observations from a re-analysis of the deposited data

Results flagged for a closer look

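Bc1 differed in direction between genotypes for 5xFAD over young in the whole sections. The log2 ratio was 0.385 in E3, where Bc1 was at 11400 against 8728 CPM, and -0.683 in E4, where it was at 4112 against 6603 CPM. Each ratio compares 1 section with 1 section, and the difference between them was not tested. Over the 6 regions, the ratio was above 0 in 4 in E3 and in 0 in E4.

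All 7 RNAs were found at barcodes outside the tissue masks, which the comparisons do not use: 1878 UMIs of Malat1, 7010 of Meg3, 32157 of Bc1, 6144 of Snhg11, 684 of Miat, 482 of Neat1 and 933 of Rian over the 6 sections. Malat1 outside the masks was at 628.7 CPM against 272.1 on tissue in E3 aged, the widest ratio of the 6 sections, and at 287.2 against 336.6 in E3 young.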

How the results depend on the processing

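No paired analysis was possible by replicate number because each group is 1 section and the labels give no such numbers. Soma-rich and dendrite-rich spots were compared within sections. Against 7, 2 and 3 calls for 5xFAD, age and E4, keeping every gene with at least 1 UMI gave 11 for 5xFAD and 4 for age. For age, DESeq2 gave 1, clusters not centred within sections 1, and spots of at least 5000 UMIs (35 pairs, since fiber tracts had too few) and the same number of spots per cluster 0 each. Leaving out 1 section gave 5 to 12 calls for 5xFAD, 2 to 4 for age and 3 to 7 for E4; the section then alone in its group is assumed to vary like the others. Soma-rich against dendrite-rich spots gave 4 to 5 calls in hippocampus and 1 to 2 in cortex when a section was left out. Runs of neighbouring depth gave 1 of 7 in hippocampus, against 5, and 2 in cortex, against 1, and in cortex every gene with at least 1 UMI and spots of at least 5000 UMIs gave 2 each.

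Leaving out 1 section moved Bc1 in 5xFAD cortex from -1.038 to 0.225, Bc1 in aged cortex from -0.584 to 0.376, and Malat1 for E4 in hippocampus from -0.036 to 0.267, none of them called over all sections. Signs turned for Bc1 in 5xFAD cortex without E4 5xFAD (0.225), Bc1 in aged cortex without E4 young (0.13) and without E3 aged (0.376), Malat1 for E4 in hippocampus without E3 aged (-0.036) and without E4 aged (-0.035), and for Neat1 in soma-rich hippocampal spots within runs of neighbouring depth (0.006). None of these 6 reversals had an adjusted p under 0.05 in that setting, and the causes were not tested. The list covers the results followed through all settings only. Snhg11 in soma-rich hippocampal spots, not among them, also changed sign and was called with total UMIs in place of TMM. Of 226 alternatives for 18 results past the threshold, 197 kept direction and call and 28 kept direction only.

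Total UMIs in place of TMM moved the median of all genes from 0.02 to 0.26 for hippocampal soma-rich spots, the calls from 3658 to 6009 and the share of higher calls from 43.1% to 78.3%, and all 7 RNAs were then called, with Snhg11 turning to 0.22. That share moved from 47.2% to 65% in cortex, from 46.8% to 69.1% in 5xFAD cerebral nuclei, from 56% to 69.7% in 5xFAD fiber tracts, and for E4 from 50% to 66.7% in cortex and from 50% to 100% in fiber tracts. Averaging spot shares in place of summed UMIs moved levels by a median of -0.07 to 0.21 on the log2 scale, and by up to 1.05 for Neat1. Shallow fiber tract spots limit what Miat and Rian can show there.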

Other observations

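In the 2 5xFAD sections, spots with at least 2 UMIs of Cst7, a gene of activated microglia, were set against spots with 0. By summed UMIs, Neat1 was higher in the former in 6 of 6 pairs of a region and a section, with counting intervals above 0 in 3. It was at 42.11 against 36.77 CPM in cortex of E3 5xFAD and at 84.58 against 55.62 in cortex of E4 5xFAD. In hippocampus it was at 86.77 against 56 and at 82.8 against 65.19, and in thalamus at 83.68 against 56.18 and at 96.55 against 95.17. The first hippocampal value, of E3 5xFAD, rests on 11 Neat1 UMIs in 15 spots. By the mean over spots, Neat1 in thalamus of E4 5xFAD went the other way (119.4 against 130.3 CPM). Cortex of E3 5xFAD was then nearly equal (49.19 against 48.46), and the other pairs kept their order. Bc1 by summed UMIs was higher in 4 of 6, those of cortex and hippocampus, and lower in both thalamus pairs. By the mean over spots, Bc1 in hippocampus of E3 5xFAD was lower too (7947 against 8071 CPM). Spots with Cst7 were deeper in thalamus, at a median of 12608.5 against 10882 UMIs and 13526 against 5626, and in cortex (13190.5 against 12688.5 and 17265 against 16472.5), and shallower in hippocampus (4801 against 5436 and 15214 against 15913). The part of depth in these values was not tested. Malat1 had 0 of 6 intervals apart from 0, and was above 0 in 2 of 6. These pairs come from 2 sections, and the spots of 1 section are not replicates.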
